A study of Danio rerio with 6 samples.

Results

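Open chromatin of control zebrafish embryos at 50% epiboly (5.5 hpf) was described from 33642 regions that were shared by all 3 control samples. They lay among the 67562 regions of chromosomes 1 to 25 that were found in at least 1 control. Over all sequences, 68671 regions were found. The assay for transposase-accessible chromatin (ATAC-seq) uses the transposase Tn5, which inserts sequencing adapters where DNA is not covered by nucleosomes or other proteins. The authors called peaks in each sample on its own, and peaks of the 3 control lists that had at least 1 base in common were merged into 1 region here. A region was kept when it lay on chromosomes 1 to 25 and held a peak in all 3 lists. The presence of these peaks chose the regions, so their number, place, length and height are given as a description, with no test. The controls were embryos of strain AB Wild Type, labelled as unexposed and kept in a solution with 0.05% DMSO, the solvent of the inhibitor. They were kept in it from about the 2-cell stage to 50% epiboly, with 150 embryos per exposure, in triplicate. The series also holds embryos exposed to PF-06726304 acetate, an inhibitor of the histone methyltransferase Ezh2, which were not used here. Nuclei came from whole embryos after removal of chorion and yolk, so a region open in few cells and a region weakly open in many cells cannot be told apart.

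At 50% epiboly the blastoderm has spread over the upper part of the yolk and the zygotic genome has recently become active. In zebrafish the factors Pou5f3, Nanog and Sox19b bind and open many enhancers around this step, while promoters of widely used genes are also kept free of nucleosomes. Open regions are therefore used as a map of promoters, enhancers and other regulatory DNA. An annotation of GRCz11, the build of the peak lists, was not used here, so regions were not divided into promoters and enhancers and no marker genes could be checked.

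The lists rested on 5894731, 6419574 and 6877909 fragments in controls 1, 2 and 3. They held 49434, 51203 and 47548 peaks on chromosomes 1 to 25. Of these peaks, 68.4%, 66.0% and 71.3% lay in shared regions and carried 86.4%, 85.2% and 86.3% of the summed pileup of the lists. The pileup is the number of fragments that cover the summit of a peak, and the height of a region is the pileup of the tallest peak of a list in it per 1000000 fragments of that list (FPM). Control 3 had the most fragments and the fewest peaks, and it was the lowest of the 3 samples at 62.7% of the shared regions.

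Merging left 67562 regions on chromosomes 1 to 25, of which 49.8% were shared by all 3 controls, 12760 (18.9%) were found in 2 controls and 21160 (31.3%) in 1. The shared regions were longer and taller than the rest, as their choice favours. Their median length was 185 bases, against 129 bases for regions found in 2 controls and 96 bases for those found in 1. Their median height, averaged over the samples with a peak, was 3.31 FPM, against 1.63 and 1.36. Together the shared regions covered 6856252 bases, which is 0.510% of the span between the first and the last control peak of all chromosomes.

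How height went along with detection was read from regions with a peak in 2 controls, by asking how often the third control had a peak as well. A peak was found in control 1 at 89.5% of the regions of controls 2 and 3, in control 2 at 90.9% of the regions of controls 1 and 3, and in control 3 at 86.0% of the regions of controls 1 and 2. Where the other samples averaged under 1.5 FPM, these shares were 62.2%, 65.7% and 47.2%. Between 2 and 3 FPM they were 90.8%, 91.5% and 86.3%. At 8 FPM or more, 0, 3 and 1 regions lacked a peak in controls 1, 2 and 3. Tall regions were thus nearly always found again, and control 3 missed more of the low ones than the other samples did.

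**Figure D1:**
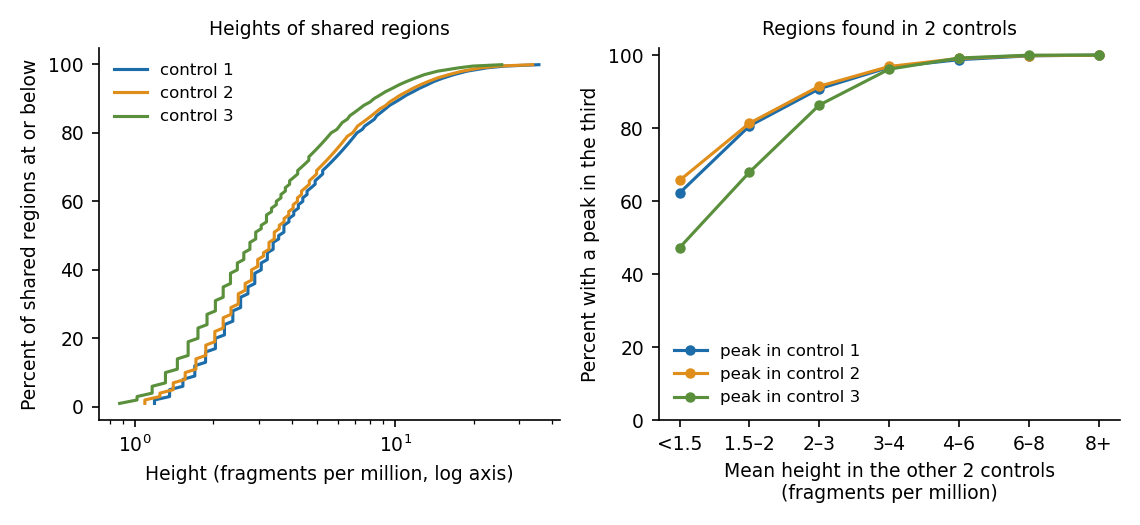
Left, share of the 33642 shared regions (percent) at or below a given height (FPM, log axis) in each control, with control 3 to the left of the others at a median of 2.91. Right, percent of regions with a peak in 2 controls that also had one in the third, by their mean height in the other 2 controls, rising from 47.2% to 65.7% in the lowest class to 100% or nearly so in the tallest.

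At the lower limit of the shared regions, the lowest mean height was that of a region on chromosome 22 (GRCz11, 24058711 to 24058871). It had a pileup of 5 fragments in each control, or 0.785 FPM on average. The tallest region that missed a control lay on chromosome 15 (14768006 to 14768093), with pileups of 104 and 115 fragments in controls 1 and 3 and no peak in control 2. Heights thus overlapped across the limit, which asks for a peak and not for a height. Of the 12760 regions found in 2 controls, 131 had a peak of the missing list less than 100 bases away and 11 had one less than 10 bases away. Among the shared regions, 95 had no base covered by all 3 lists, since neighbouring peaks overlapped in a chain, and 173 had fewer than 20 such bases.

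The heights of the shared regions were spread widely around a low median. In controls 1, 2 and 3 the median pileup was 21, 22 and 20 fragments and the highest was 483, 547 and 460 fragments. In FPM the medians were 3.56, 3.43 and 2.91, a mean of 3.299 ± 0.346 (SD, n = 3). The median for control 3 was the lowest and those of controls 1 and 2 were close to each other. The mean height over the 3 samples reached 12.7 at the 95th percentile of regions and 1.45 at the 5th, which is 8.79 times lower. The tallest 336 regions (1%) held 5.44% of the summed height and the tallest 3364 (10%) held 30.4%, whereas the lower 50% of the regions held 23.5%.

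Samples agreed more closely on tall regions than on low ones. The Pearson correlation of log2 heights over the 33642 regions was 0.917 for controls 1 and 2, 0.895 for controls 1 and 3 and 0.907 for controls 2 and 3, and Spearman's rho was 0.899, 0.873 and 0.887. These are descriptions over regions that were all chosen for a peak in each sample. Among the 1000 tallest regions of each sample, 710 were the same in all 3. After the median of each sample was subtracted, the median SD of the log2 height over the samples was 0.24. By deciles of height it was highest, at 0.30, in decile 2 and lowest, at 0.15, in decile 10. Low regions rest on few fragments, and the part of counting error in this spread was not tested. Without subtraction of the medians, the highest and the lowest sample of a region were within 2-fold of each other at 29965 regions (89.1%). With it, they were at 31384 regions (93.3%).

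The 5 tallest regions measured 185 to 220 bases, close to the median length. The first, on chromosome 2 (14676090 to 14676300, 211 bases), had pileups of 483, 547 and 460 fragments in controls 1, 2 and 3, or 78.0 ± 9.77 FPM (SD, n = 3). That is 23.6 times the median of the shared regions. Of the next 4, 3 lay close together at the start of chromosome 7. There, the region from 5671 to 5890 reached 67.3 ± 12.2 FPM, the one from 7611 to 7799 reached 64.7 ± 14.3 and the one from 7981 to 8165 reached 51.3 ± 17.2 (SD, n = 3). In the last of these control 3, with 218 fragments, was well below controls 1 and 2 with 377 and 373. Whether reads from near-identical copies piled up on these 3 regions of chromosome 7 was not tested. The fourth tallest lay on chromosome 4 (63365137 to 63365345, 209 bases), where the pileups were 476, 359 and 344 fragments (62.2 ± 16.3 FPM, SD, n = 3). The tallest 336 regions were spread over all 25 chromosomes, were 280 bases long at the median, and 57 of them (17.0%) lay within 1 Mb of a chromosome end, against 2172 (6.46%) of all shared regions.

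Lengths were confined to a narrow range. The quartiles of the shared regions were 148 and 239 bases, 29661 (88.2%) measured 100 to 300 bases, and the mean was 204 ± 78.9 bases (SD over regions). The peaks of the single lists inside them had median lengths of 157, 159 and 151 bases. A merged region is longer than its peaks because their edges differ between samples, and 128 bases at the median (74.7% of the region, at the median) were covered by all 3 lists. The shortest peaks of the lists measured 78, 79 and 76 bases, which is the fragment size given in each header and the shortest length that could be called. Each list contributed a single peak at 33215 regions (98.7%). Longer regions were taller (Pearson r = 0.397 between log2 length and log2 height over the 33642 regions, Spearman's rho = 0.381). The median length was 161 bases in the lowest decile by height and 255 bases in the tallest.

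The longest shared region, on chromosome 16 (25921072 to 25922082), measured 1011 bases and was tall as well, with pileups of 147, 179 and 164 fragments in controls 1, 2 and 3 (25.6 ± 2.09 FPM, SD, n = 3). No other exceeded 876 bases. The next, on chromosome 6 (8420840 to 8421715, 876 bases), had 5.54 ± 1.32 FPM, and the third, on chromosome 3 (45787593 to 45788444, 852 bases), had 2.62 ± 0.436. The latter is under the median height of all shared regions, and each list contributed 2 peaks to it, with 235 bases covered by all 3 lists. Control 1 also contributed 2 peaks to the regions on chromosomes 16 and 6, where 742 and 739 bases were covered by all 3 lists. On chromosome 12 a region of 826 bases (22559569 to 22560394) had 13.5 ± 1.63 FPM and one of 791 bases (6482361 to 6483151) had 3.03 ± 0.499. In these, 614 and 508 bases were covered by all 3 lists, and control 3 contributed 2 peaks to the one of 791 bases. The 5 longest regions thus ranged from below the median height to the tallest 1%, and 226 regions in all were over 500 bases.

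Shared regions were found at a density of 25.0 per Mb (1000000 bases) of the span between the first and the last control peak of each chromosome. The density was similar on most chromosomes, and chromosome 4 stood apart. It was highest on chromosomes 21, 23 and 19, with 28.4, 28.3 and 28.1 regions per Mb. It was lowest on chromosomes 4, 12 and 18, with 15.4, 21.8 and 21.8. Without chromosome 4 the remaining 24 ranged from 21.8 to 28.4 around a median of 25.6, and chromosome 4 was at 0.602 of that median. Of the merged regions of chromosome 4, 44.0% were shared by all 3 controls, against 46.7% to 52.1% on the others. Spans were not corrected for sequence that cannot be mapped. Chromosome 4 lay below all others in each list on its own. All peaks of a list amounted to 24.3 ± 1.45 per Mb on chromosome 4 (SD, n = 3), 33.1 ± 1.71 on chromosome 18, 33.2 ± 1.68 on chromosome 12 and 40.5 ± 1.40 on chromosome 21. The gap from chromosome 4 to the next was thus far larger than the SDs, whereas most of the other chromosomes differed from the next in this order by less than the SD of either. These SDs include shifts of whole lists, which differ in their number of peaks. They are therefore not the error of a difference between chromosomes within the same lists.

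The order of the chromosomes was similar between samples. Peak densities of the single lists over the 25 chromosomes correlated with Pearson r of 0.983, 0.978 and 0.981 for controls 1 and 2, 1 and 3, and 2 and 3, and with 0.961, 0.950 and 0.954 without chromosome 4. These lists share the genome and its mappable sequence, so the values describe the lists and are no test. The number of shared regions went along with the span of the chromosome (Pearson r = 0.933, Spearman's rho = 0.903 over the 24 chromosomes without chromosome 4, and 0.751 and 0.788 with it). Denser chromosomes had taller regions at the median (r = 0.661, rho = 0.622 over 25, and r = 0.519, rho = 0.573 over 24 without chromosome 4). Regions with a close neighbour were taller, as given below, and the part of spacing in this relation was not tested. Chromosome 3 had the highest median height, with 3.68 FPM, and in controls 1 and 2 it shared the first rank with chromosome 10. Chromosome 4 had the lowest, with 2.94, and in control 3 it shared the last rank with chromosome 9. The median length varied little, from 181 to 192 bases on the other chromosomes and 178 bases on chromosome 4.

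**Figure D2:**
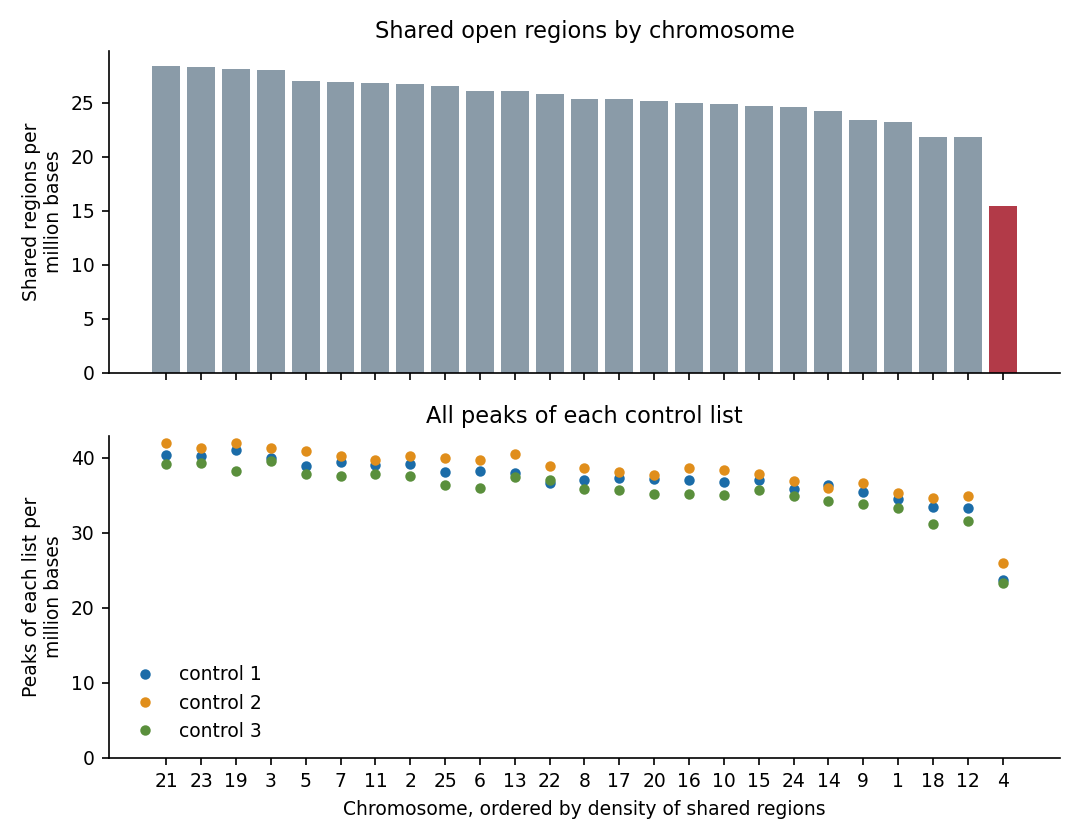
Upper, shared regions per Mb (bars, from 0) on each of the 25 chromosomes, ordered from 28.4 on chromosome 21 to 15.4 on chromosome 4 (red). Lower, all peaks of each control list per Mb on the same chromosomes, 1 point per sample, with chromosome 4 the lowest in each list.

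In zebrafish the long arm of chromosome 4 is known as late replicating, rich in repeats and in families of duplicated genes, and poor in other protein-coding genes. The low density of chromosome 4 came from its inner and later parts and not from its start. When each chromosome span was cut into 20 equal parts, chromosome 4 had 37.4 shared regions per Mb in the first part. The other chromosomes had a median of 32.6 there and ranged from 16.7 to 53.2, so the start of chromosome 4 was within their range. The first 10 Mb of chromosome 4 held 354 shared regions (35.4 per Mb). The density then fell to 25.9 and 20.6 in the next 2 stretches of 10 Mb. From 30 to 70 Mb there were 269 regions, or 6.73 per Mb, with 7.30, 7.90, 6.40 and 5.30 in its 4 stretches. Past 70 Mb the density was 14.3. Chromosome 4 spanned 78.0 Mb, and the whole genome had 1336 full windows of 1 Mb, with a median of 24 shared regions. Of the 84 full windows with fewer than 10 shared regions, 36 lay on chromosome 4.

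The regions between 30 and 70 Mb of chromosome 4 were low at the median, yet a few were among the tallest anywhere. Their median height was 2.88, 2.65 and 1.89 FPM in controls 1, 2 and 3, against 3.56, 3.43 and 2.91 for the 33373 other shared regions, so they were lower in each sample. Their median length was 164 bases, against 185. Regions anywhere with no other within 50000 bases had median heights of 2.97, 2.65 and 2.18 FPM in controls 1, 2 and 3. The part of the wide spacing in the low heights on chromosome 4 was not tested. Of the 269, 6 (2.23%) belonged to the tallest 336 regions of the genome, against 0.989% of the others. These 6 measured 202 to 222 bases, whereas the median of the other tallest regions was 282 bases. Such lengths were also seen elsewhere, with 211 bases for the tallest region of all, on chromosome 2, and 220 bases for the next, on chromosome 7. Besides the region at 63365137, the 6 on chromosome 4 were at 33968021 to 33968228 (36.0 ± 5.95 FPM, SD, n = 3), 41344247 to 41344461 (34.9 ± 7.27), 52738075 to 52738276 (34.4 ± 8.01), 43143647 to 43143868 (27.5 ± 6.08) and 55452993 to 55453203 (22.1 ± 9.66). They were picked for this description by their heights, and whether reads from near-identical copies piled up on them was not tested.

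Towards chromosome ends shared regions became denser. In the outermost 100 kb, counted from the first or last control peak of a chromosome, there were 67.6 per Mb. The density was 51.6 from 100 to 250 kb, 44.2 from 250 to 500 kb, 35.8 from 500 to 1000 kb and 29.0 from 1 to 2 Mb. It levelled off at 24.9 from 2 to 5 Mb and at 23.99 and 24.01 in the classes further inside. All peaks of the single lists showed the same course, with 98.5 ± 3.82 per Mb in the outermost 100 kb and 35.5 ± 1.27 more than 10 Mb inside (SD, n = 3), a difference larger than the SD between samples. The outermost peak sets the end itself, which puts a peak of some list at each of the 50 ends by construction, against 338 shared regions counted there.

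The outermost windows of 1 Mb, 50 in all, held more shared regions than the inner parts of their chromosomes, more than 5 Mb from either end. On chromosomes 3 and 9 one window exceeded the inner density by less than 1 region (29 against 28.5 and 23 against 22.3), which is no more than the peak that sets the end can add. The 50 windows held 23 to 69 regions with a median of 43.5, where the inner parts had a median of 24.2 per Mb. Regions there were also taller. The median height in the outermost 100 kb was 4.58, 4.52 and 3.93 FPM in controls 1, 2 and 3, against 3.56, 3.43 and 2.91 more than 10 Mb inside. It was higher near the ends in each of the samples. Regions anywhere with a neighbour less than 1000 bases away had similar medians, 4.58, 4.36 and 3.78 FPM. The part of the closer spacing in the heights near ends was not tested.

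**Figure D3:**
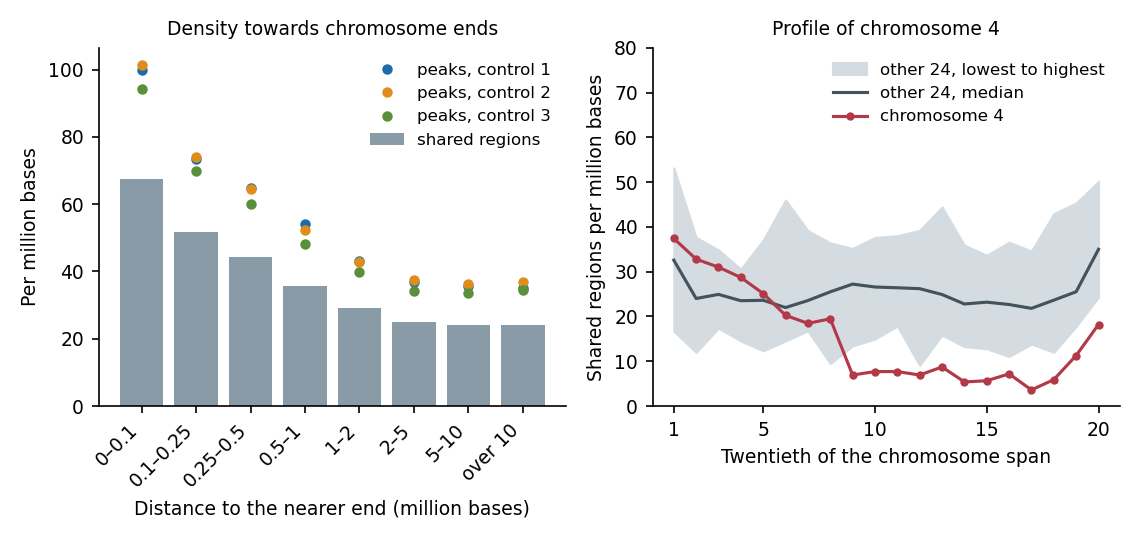
Left, shared regions (bars) and all peaks of each control list (points) per Mb by distance to the nearer chromosome end in Mb, falling from 67.6 shared regions in the outermost class to 24.01 in the innermost. Right, shared regions per Mb in 20 equal parts of each chromosome span for chromosome 4 (red) and for the other 24 (line, median; band, lowest to highest), with chromosome 4 below the band from the ninth part on.

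Of the densest full windows of 1 Mb named here, most lay at chromosome starts. Windows were counted from the start of the coordinates, so the last, incomplete window of a chromosome was left out of this order. Counted back from the last control peak, the last 1 Mb held 59 shared regions on chromosome 12 and 57 on chromosome 1, so ends could be similarly dense. The first window of chromosome 4 held 68 shared regions, that of chromosome 25 held 66, that of chromosome 22 held 62 and that of chromosome 19 held 60. The same number of 60 was reached between 35 and 36 Mb of chromosome 25, close to its end, and between 23 and 24 Mb of chromosome 3, the only one of these windows far from an end. In that inner window of chromosome 3, controls 1, 2 and 3 had 80, 78 and 90 peaks. The start of chromosome 4 thus held the densest of the 1336 full windows, although the chromosome as a whole was the sparsest.

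Neighbouring shared regions were 19020 bases apart at the median and 39778 bases apart on average, counted from the end of one to the start of the next over 33617 pairs. The mean is well above the median because many regions stood close together and some stretches without a shared region were long. Under 1000 bases there were 2807 pairs (8.35%) and under 10000 bases 11531 pairs (34.3%). At the other end 3328 pairs (9.90%) were more than 100000 bases apart, and the bases between them made up 45.04% of all bases between neighbours. The median spacing was 24659.5 bases on chromosome 4 and 16300 to 22568.5 bases on the other chromosomes.

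The longest stretch without a shared region lay on chromosome 7, from 2422425 to 3583936, and measured 1161512 bases. Controls 1, 2 and 3 had 1, 2 and 0 peaks in it. The next 4 were on chromosome 4, from 45580499 to 46546091, from 52854037 to 53795066, from 65009780 to 65905581 and from 68475841 to 69335789, with 0 to 5 peaks in any list. Of 41 stretches over 500 kb in the genome, 15 were on chromosome 4, which held 3.58% of all shared regions. The 5 longest stretches were thus nearly empty in each control. No sequence of GRCz11 was used here, and whether parts of these stretches cannot be mapped was not tested.

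Among close neighbours some distances were more common than others. Between 100 and 150 bases there were 375 pairs and between 150 and 200 bases 310 pairs, but only 116 between 200 and 250 bases and 149 between 250 and 300. The number rose again to 196 from 300 to 350 bases and 189 from 350 to 400, and fell to 129 from 400 to 450. The 685 pairs from 100 to under 200 bases apart had centres 317 bases from each other at the median. When peaks under 120 bases were left out, 202 such pairs were found, while the shared regions fell from 33642 to 20705. A pair is lost with either of its regions, so a steeper fall of pairs is partly built in. The same order was seen in the peaks of each list before merging. Distances from 100 to under 200 bases numbered 1314, 1334 and 1449 in controls 1, 2 and 3, those from 200 to under 300 bases 532, 588 and 527, and those from 300 to under 400 bases 720, 726 and 787. No peaks of one list were closer than 79, 80 and 77 bases, 1 base above the fragment size of each header, so shorter distances do not occur within a list. Among the shared regions 116 pairs were under 100 bases apart. A nucleosome wraps DNA of a length close to the most common spacing, but nucleosome positions were not measured in these lists.

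**Figure D4:**
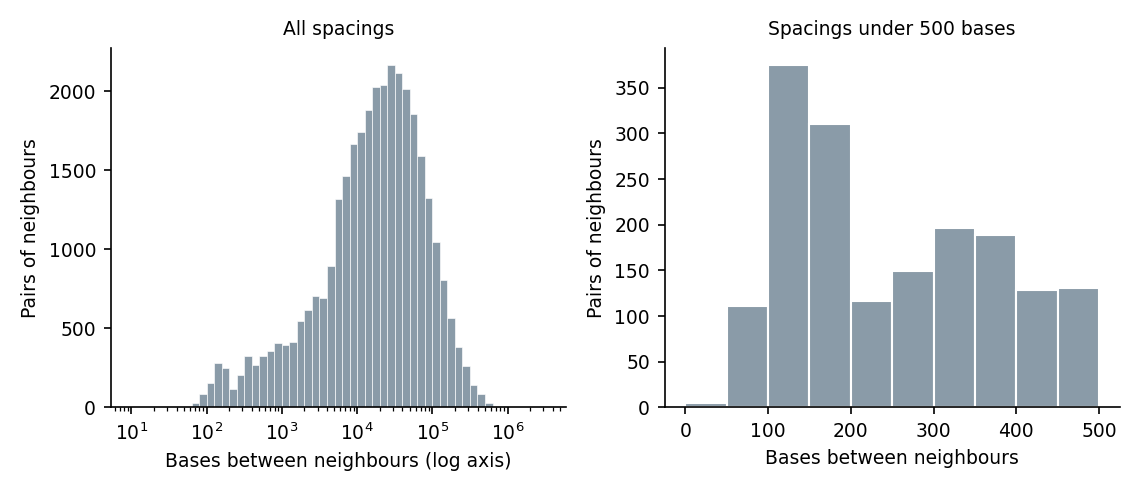
Left, number of pairs of neighbouring shared regions by the bases between them (log axis, bins of equal width on that axis). A broad main maximum has its highest bin (2167 pairs) above the median of 19020 bases, and a small one lies between 100 and 200 bases (281 pairs in its highest bin). Right, the pairs under 500 bases apart in bins of 50 bases, with 375 and 310 pairs in the bins from 100 to 200 bases and 116 in the next.

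Regions with a close neighbour were taller. The median height was 4.58, 4.36 and 3.78 FPM in controls 1, 2 and 3 for the 5379 regions with another less than 1000 bases away. It was 4.41, 4.21 and 3.49 for the 7046 regions with the nearest at 1000 to 5000 bases, and 3.22, 3.12 and 2.62 for the 12252 with the nearest at 5000 to 20000 bases. The fall between the last 2 classes was seen in each sample. For the 2732 regions with no other within 50000 bases the medians were 2.97, 2.65 and 2.18.

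Neighbours also had similar heights, but only at short range. Over the 7066 pairs less than 5000 bases apart the log2 mean heights correlated with r = 0.394, and over the 26551 pairs further apart with r = 0.030. In controls 1, 2 and 3 alone, r was 0.360, 0.381 and 0.400 below 5000 bases and 0.024, 0.028 and 0.049 above. The relation did not fade with distance but ended in a step. In bins of 500 bases r was 0.388 from 4000 to 4500 bases, 0.228 from 4500 to 5000 and 0.052 from 5000 to 5500. Below 4000 bases it lay between 0.346 and 0.437 in every bin.

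The step lies at the reach of the caller's background. According to the headers, the background of a position was taken from 10000 bases around it, which is 5000 bases to either side, so a tall region raises the level that a neighbour within this distance must pass. The lists show a lack of low regions there. Of the 1512 pairs less than 5000 bases apart with one region of at least 10 FPM, 0.463% had a partner under 2. Of the 4121 such pairs further apart, 23.3% had one. The taller heights of close neighbours and the correlation below 5000 bases go along with low regions being rare near tall ones, and the part of the background window in both was not tested.

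**Figure D5:**
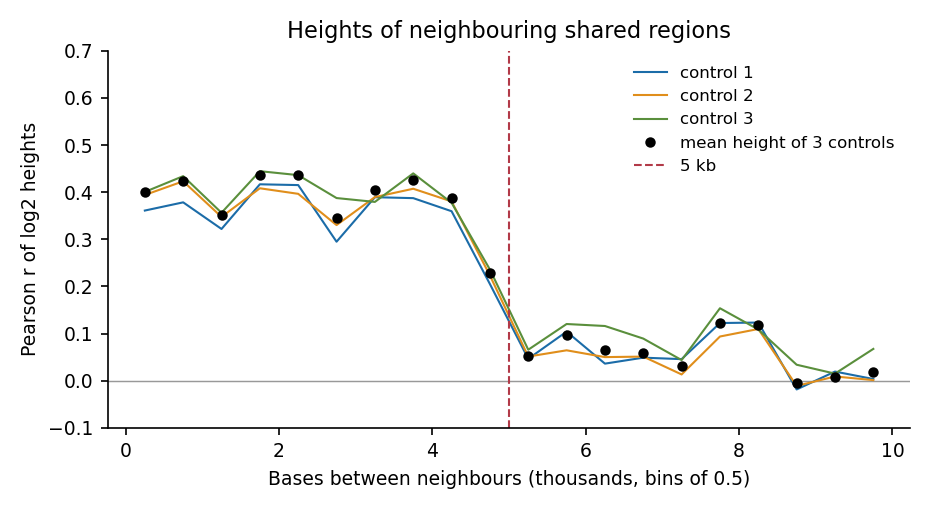
Pearson r between the log2 heights of neighbouring shared regions (FPM) by the bases between them in bins of 500 bases, for the mean of the 3 controls (points) and each control (lines). The value drops from 0.388 to 0.052 between the bins just below 4500 and just above 5000 bases (dashed line).

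The study shows a few genes in genome browser views of GRCz11, and shared regions were looked up at the places drawn there. These places were read from the views and not checked against an annotation, so the positions relative to the genes are approximate. Beside igfbp1a on chromosome 20, which encodes a binding protein of insulin-like growth factors, the region from 6813673 to 6814135 had pileups of 15, 21 and 18 fragments in controls 1, 2 and 3. Its mean height was higher than at 40.6% of the shared regions, and with 463 bases it was much longer than the median region. In bdnf on chromosome 7, which encodes a neurotrophic factor, a region at 31931416 had 24, 18 and 20 fragments and one at 31932697 had 23, 18 and 34. Their mean heights were at the 49.2 and 58.6 percentiles, so both were ordinary in height. Upstream of cebpa, a transcription factor gene of the CCAAT/enhancer-binding family, the region at 38088657 had 22, 31 and 25 fragments, at the 61.0 percentile. A region drawn near the start of the neighbouring cebpg, which encodes another factor of that family, was far taller, with 73, 85 and 85 fragments from 38089513 to 38089712, at the 94.9 percentile. Near the 5′ end of igfbp3 as drawn, another binding protein of that growth factor family, the region at 6773763 had 13, 16 and 9 fragments. Its mean height was at the 20.3 percentile. It measured 491 bases, but only 91 of them were covered by all 3 lists, and control 1 contributed 2 peaks to it. In lin7c, a scaffold protein of cell junctions, 3 shared regions were present, with the tallest at 31921560 (22, 20 and 19 fragments, at the 48.3 percentile). The others were among the lowest, at the 5.1 percentile (31907160, with 8, 10 and 10 fragments) and the 3.0 percentile (31907990, with 14, 6 and 5).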

How the data were processed

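Peak lists of 3 control samples were used, and those of the exposed samples were left out. The authors trimmed reads with Trim Galore, aligned them with Bowtie2 to GRCz11 in snakePipes and called peaks with MACS2 2.1.1.20160309 per sample. The study kept fragments that span a nucleosome because of low depth, while the headers give fragment sizes of 76 to 79 bases. Per the file headers, paired fragments without a control library, a q-value cutoff of 0.001 and at most 1 duplicate fragment per position were used. The deposited pileup is the coverage, in whole fragments, at the summit. It was divided by the fragments left after filtering and multiplied by 1000000 (FPM). The deposited −log10 q-values served a stricter threshold, −log10 q of at least 5, only. Peak length is a deposited column in bases. Positions count from 1.

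Replicate numbers came from the sample titles. Merging was tested on simulated lists. Values are given per sample or as mean ± SD over 3 samples, and no test was run, as the regions were chosen from the same calls. No chromosome lengths were used, and spans run from the first to the last control peak. Regions named are the 5 tallest, the 5 longest, the 5 longest gaps, the 5 densest windows with ties, 3 chromosomes at either end of the order, and those at genes the study draws. The regions on chromosome 4 were added after their values were seen. The regions described and these rules were chosen with earlier results of these data known. Python 3.11.15, pandas 2.3.3, numpy 2.4.6 and matplotlib 3.10.9 were used. The precision is limited by pileups of about 20 fragments at the median. Alternatives were stricter calling, other merging, equal list lengths, a minimum length, other scalings and leaving out each sample.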

Additional observations from a re-analysis of the deposited data

Results flagged for a closer look

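Outside chromosomes 1 to 25, the control lists held 519 regions with a peak in all 3 controls, 509 of them on unplaced scaffolds and 10 on the mitochondrial genome. They are a signal in data that the report did not use.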

How the results depend on the processing

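Of 113 values recomputed under alternatives, including those without chromosome 4, 82 moved by less than 1 SD between controls (counts, by less than 1.5 times). This SD was taken over the values of each list on its own, with all its peaks on chromosomes 1 to 25. For the correlation of the controls it was taken over the 3 pairs of controls. When peaks under 120 bases were left out, shared regions fell from 33642 to 20705, the median density over chromosomes from 25.4 to 15.7 regions per Mb, the median spacing rose to 31107.5 bases, the length to 216 bases, the height to 4.62 FPM and the mean correlation of the controls from 0.906 to 0.918. The density of chromosome 4 relative to the median of the others was then 0.535, and lay between 0.596 and 0.622 under the other alternatives. Pairs from 100 to under 200 bases apart fell from 685 to 202. A −log10 q of at least 5 moved the spacing to 19726.5 bases. With 10 parts per chromosome in place of 20, the outermost parts were 1.21 in place of 1.37 times as dense as the rest. Leaving out each control in turn gave 37018 to 39114 regions, densities of 27.8 to 29.4, spacings of 16853 to 17432 bases, lengths of 169 to 170 bases, heights of 2.89 to 3.08 and correlations of 0.897 to 0.919, with fewer lists required. The density, spacing, length and height moved by more than 1 such SD with each control left out, while the number of regions stayed within 1.5 times. For height this SD was 0.183 FPM, smaller than the SD of 0.346 FPM between the medians of the shared regions in the 3 controls. Against the latter, only leaving out control 1 moved the height by more than 1 SD (2.89 against 3.31 FPM). Leaving out chromosome 4 was chosen after seeing the data and moved no value by 1 SD. The correlation of neighbours under 5000 bases stayed between 0.383 and 0.412. No paired analysis was possible because the results come from no test and a single group. Pileups were 20 to 22 fragments at the median, and heights of low regions are the least precise.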
